A study of Mus musculus with 56 samples.

Results

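Liver tumours that carried the lucOS construct were compared with tumours that carried the luc construct, in 12 bulk RNA-seq libraries out of 26 in the study and 56 samples in all. All 12 tumours arose in C57BL/6 mice after hydrodynamic tail vein injection, a rapid large-volume injection that carries plasmid DNA into hepatocytes, and received no further treatment. The control group held 6 tumours labelled MYC-luc-nicd, that is, MYC, luciferase (luc) and NICD, the intracellular domain that makes NOTCH signalling active without a ligand. The other group held 6 tumours labelled MYC-lucOS-nicd, which shared MYC and NICD and differed in carrying lucOS in place of luc. lucOS is a luciferase fused to model T cell antigens, so the comparison asks what a strong tumour antigen changes in a MYC and NICD tumour. The members were taken by title: the MYC-luc-nicd and MYC-lucOS-nicd libraries whose number begins with AL51 or AL54 and whose title names no sex. The luc group held 3 AL51 and 3 AL54 tumours (replicates 1 to 3 and 4 to 6), and the lucOS group 2 AL51 and 4 AL54 tumours (replicates 1 to 2 and 3 to 6). Each title has its own number, taken here as an animal, the labels give no age, and the comparison was adjusted for the number series. The tumours labelled as males (AL75, 4 luc and 4 lucOS) and 6 healthy livers are used below as outside comparisons.

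Cytotoxic T cells that recognise an antigen on MHC class I release interferon gamma. Interferon gamma raises the transcription of guanylate binding proteins, immunity-related GTPases, the T cell attracting chemokines Cxcl9 and Cxcl10, and the machinery that loads and presents peptides. In liver tumours these genes are a common readout of T cell activity, while MYC drives ribosome production, cell division and biosynthesis.

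Across all genes no difference passed the test. Of 14784 genes with at least 1 TPM (a transcript level scaled for gene length and library total) in at least 4 of the 12 libraries, limma called 0 at an adjusted p under 0.05 (0.00%). The smallest adjusted p was 0.773, a value that the adjustment gave to many genes alike. Among them were Anxa11, with the smallest unadjusted limma p (7.9e-05), and Srp54b (0.0562). An adjusted p of 0.773 below therefore does not rank genes. At an unadjusted p under 0.05 there were 473 genes higher in lucOS (3.20%) and 437 lower (2.96%), and 7698 differences were positive (52.1%). The 12 libraries set a limit on what was missed: the 95% interval of the log2 difference lay within 1 in either direction for 12869 genes (87.0%), with a median distance of 0.31 from the estimate to either bound. All differences are on the log2(TPM + 1) scale, which understates the change of low genes. Because TPM values hold no read counts, the depth behind each value is unknown. In the text that follows, a gene described as higher or lower has only that observed direction unless an adjusted p under 0.05 is given.

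Some libraries stood apart from the rest in both groups. On the first principal component, which held 28.7% of the variance, luc replicate 3 scored 38.8, lucOS replicate 1 scored 42.9 and lucOS replicate 3 scored 51.3, while the other 9 libraries scored between -31.0 and -1.34. The labelled construct did not separate the libraries on this axis. Leaving out those 3 libraries also gave 0 called genes, now with 1123 of 14466 genes at an unadjusted p under 0.05. Xist, the RNA of the inactive X chromosome in female cells, was at 97.2 to 189 TPM in all 12 libraries.

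The rows of the driver genes and of a direct target showed no difference past the test. Nrarp, a direct NOTCH target, had 1224 to 1619 TPM in luc (median 1537) and 1310 to 1675 in lucOS (median 1462), against 1.27 ± 0.41 in healthy liver (SD, n = 6). Its groups overlapped throughout, with a log2 difference of 0.02 (95% interval -0.15 to 0.20). Notch1, whose row cannot separate introduced from endogenous transcript, was at 469 ± 152 TPM in luc and 576 ± 167 in lucOS (SD, n = 6 each), a difference of 0.22 (95% interval -0.22 to 0.66). Myc was at 26.4 ± 4.97 and 26.8 ± 3.48 TPM, a difference of 0.03 (95% interval -0.27 to 0.32). Its row has the same limit, so the level of the introduced MYC is not known. Of 26 NOTCH pathway genes tested, 16 were higher and 10 lower in lucOS, with a median of 0.06, which was 0.02 without luc replicate 1, 0.13 without lucOS replicate 2 and -0.02 in AL51, and 0 were called.

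As tissue checks, Alb, the main hepatocyte plasma protein, ranged from 134 to 3267 TPM in luc and from 222 to 2762 in lucOS, against 88620 ± 19690 in healthy liver (SD, n = 6). Krt19, a marker of biliary and progenitor cells, was at 73.0 to 304 TPM in luc and 71.95 to 324 in lucOS, against 1.19 ± 0.43 in healthy liver. Both constructs thus held tumours with little Alb and with much Krt19 relative to healthy liver.

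Interferon gamma response genes were at their highest in 3 of the 6 lucOS tumours and within or below the luc range, on average over the list, in the other 3. Of 21 listed genes 17 passed the filter on low values, 17 of 17 were higher in lucOS, 4 had an unadjusted p under 0.05 and 0 were called. Cxcl9 and Tgtp1 reached 1 TPM in lucOS tumours only, so they passed through the group where they were high, and the count only describes these libraries. The median log2 difference of the 17 was 0.46, where the median of all genes tested was 0.01. Promoters of 4 members described here are shown first, chosen after their values were seen, since these genes belong to a known response: the 120 bases before the RefSeq transcript start (GRCm38.p6), 5′ to 3′, with any match to the GAS motif (TTCNNNGAA) or the ISRE motif (GAAA, any 2 bases, GAAA), on either strand, in capitals. The Cxcl9 promoter has no match in this stretch.

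Gbp2, chr3:142620543-142620662, plus strand: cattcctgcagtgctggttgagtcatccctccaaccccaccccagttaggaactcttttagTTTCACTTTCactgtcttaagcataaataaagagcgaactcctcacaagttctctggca
Igtp, chr11:58199436-58199555, plus strand: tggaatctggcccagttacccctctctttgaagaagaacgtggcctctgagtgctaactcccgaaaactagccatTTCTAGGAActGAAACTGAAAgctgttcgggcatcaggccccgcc
Tgtp1, chr11:48992247-48992366, minus strand: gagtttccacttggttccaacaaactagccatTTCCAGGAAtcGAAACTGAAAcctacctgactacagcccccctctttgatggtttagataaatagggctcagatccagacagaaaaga
Cxcl9, chr5:92328080-92328199, minus strand: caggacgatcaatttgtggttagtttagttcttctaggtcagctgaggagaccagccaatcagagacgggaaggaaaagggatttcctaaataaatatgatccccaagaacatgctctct

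Of the 17 genes tested, 13 had a promoter window in the table. Within 250 bases before a start, an ISRE match was present in 10 of the 13 (76.9%) and in 3.46% of all 27025 genes with a window. A GAS match was present in 6 of the 13 (46.2%) and in 8.13% of all genes. Igtp and Tgtp1 had both motifs with 2 bases between them, and Gbp2 had an ISRE match alone. These matches describe letters in the windows of genes listed for a known response.

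Cxcl9, a chemokine that draws activated T cells, had 0.348, 0.0728, 0.0459, 0.174, 0.178 and 0.497 TPM in luc replicates 1 to 6. In lucOS replicates 1 to 6 it had 0.0413, 1.06, 6.72, 0.244, 5.15 and 2.53 TPM. Replicates 2, 3, 5 and 6 of lucOS were above every luc tumour, replicate 4 lay within the luc range and replicate 1 below it. The log2 difference was 1.07 (SE 0.43, 95% interval 0.12 to 2.02, adjusted p = 0.773). Healthy liver had 5.37 ± 1.93 TPM (SD, n = 6), with a lowest value of 2.75, so lucOS replicates 3 and 5 lay within its range and the other 10 tumours below it. Summed over the 21 listed interferon gamma genes, TPM was 43.0 to 80.5 in luc, 38.5 to 143 in lucOS and 338 on average in healthy liver.

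Igtp, an immunity-related GTPase, had 1.33, 1.78, 1.85, 4.94, 1.73 and 3.51 TPM in luc replicates 1 to 6. The lucOS replicates had 1.31, 4.49, 8.80, 3.29, 10.3 and 7.45 TPM. As for Cxcl9, lucOS replicates 3, 5 and 6 were above all luc tumours, and the log2 difference was 0.72 (SE 0.30, adjusted p = 0.773). Tgtp1, another GTPase of this family, had at most 0.692 TPM in luc and 0.128, 1.00, 2.84, 1.17, 3.09 and 2.71 TPM in lucOS replicates 1 to 6. Its difference was 0.73 (SE 0.23, adjusted p = 0.773), for a gene that passed the filter through lucOS alone, and its near-identical neighbour Tgtp2 (0.71, adjusted p = 0.773) may share reads with it. Gbp2, a guanylate binding protein, was at 1.88 ± 0.999 TPM in luc and 5.04 ± 3.69 in lucOS (SD, n = 6 each; 0.69, adjusted p = 0.773). The transcription factor Irf1 differed by 0.08 (adjusted p = 0.914). The feedback inhibitor Socs1 differed by 0.11 (adjusted p = 0.936). The 4 listed genes under the filter were Cxcl11, Gbp5, Ido1 and Batf2, of which Gbp5, a further guanylate binding protein, had at most 0.963 TPM in luc and 0.119, 0.569, 1.41, 0.323, 2.00 and 1.38 in lucOS replicates 1 to 6.

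**Figure D1:**
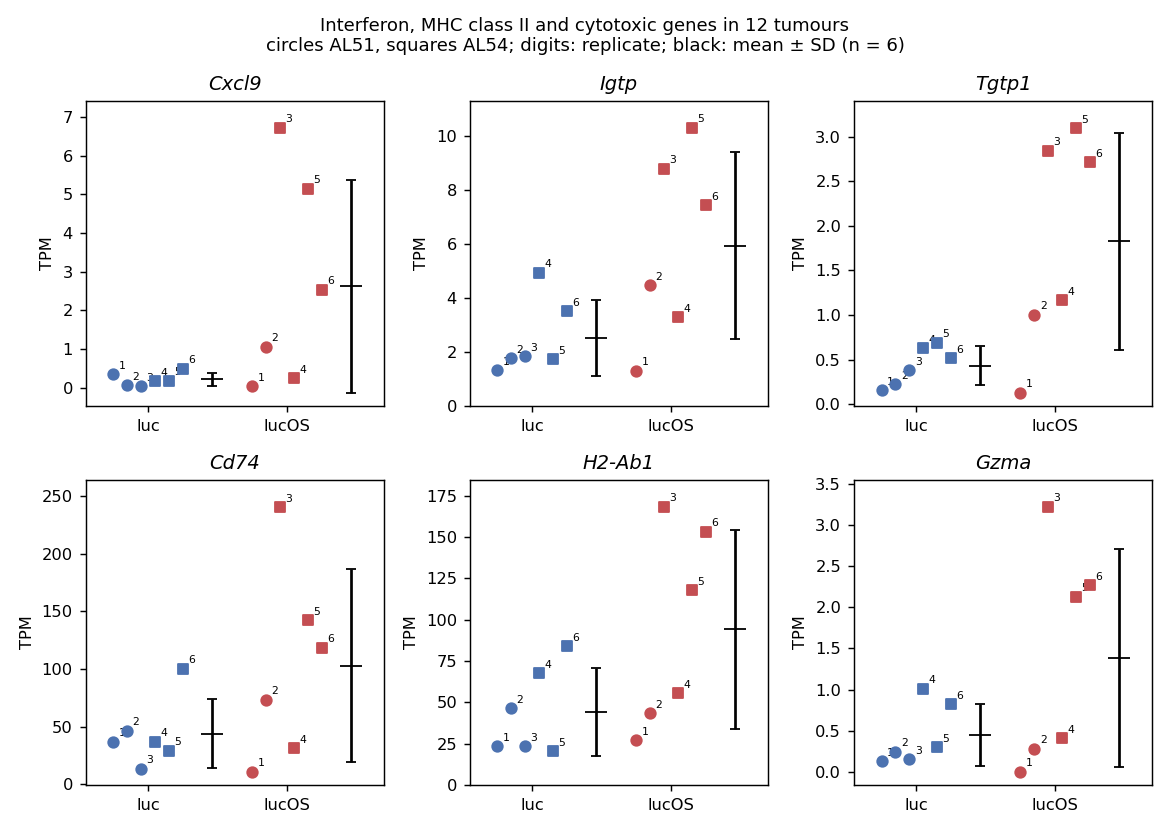
TPM of 6 genes in each of the 12 tumours (linear axis), with luc in blue and lucOS in red, AL51 as circles, AL54 as squares, the replicate number beside each point and the mean ± SD of 6 in black. lucOS replicates 3, 5 and 6 have the 3 highest values in each of the 6 panels.

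The 3 lucOS tumours with high levels were all of the AL54 series. In AL54 alone, 16 of 16 interferon gamma genes tested were higher in lucOS, with a median of 0.65. In AL51 alone 7 of 11 were higher, with a median of 0.03. Of all genes tested, 7857 of 14318 were higher in AL54 (median 0.02) and 6412 of 13551 in AL51 (median -0.01). The test of the difference between the series called 0 of 14784 genes (0.00%, with 138 at an unadjusted p under 0.05), and for Cxcl9 the AL54 minus AL51 difference was 1.23 (adjusted p = 1). With 2 lucOS tumours in AL51, the series and the tumour-to-tumour spread cannot be told apart. Leaving out each library in turn, the list's median lay between 0.28 (without luc replicate 5) and 0.57 (without lucOS replicate 1), and it was 0.56 over the 14 genes tested without the 3 libraries that stood apart.

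MHC class II genes, which present peptides to CD4 T cells, were highest in the same tumours. Of 11 listed 8 were tested, 7 were higher in lucOS, 0 had an unadjusted p under 0.05, and the median was 0.54. Cd74, the invariant chain, had 36.8, 46.3, 13.3, 36.9, 29.1 and 100.2 TPM in luc replicates 1 to 6. In lucOS it had 10.8, 73.2, 240.5, 31.4, 142 and 119 TPM. The groups overlapped, with lucOS replicate 1 the lowest and lucOS replicate 3 the highest of all 12, and the difference was 0.68 (SE 0.61, adjusted p = 0.834). H2-Ab1, a class II beta chain, was at 44.2 ± 26.6 TPM in luc and 94.3 ± 60.2 in lucOS (SD, n = 6 each; 0.80, adjusted p = 0.773). The class II median was 0.93 in AL54 (8 of 8 higher) and 0.01 in AL51 (4 of 7). It moved to 0.29 without luc replicate 5 and to 0.82 without lucOS replicate 1.

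Class I presentation genes had a smaller median, a difference between lists that was not tested. Of 22 class I and peptide loading genes tested, 17 were higher in lucOS, 1 had an unadjusted p under 0.05, and the median was 0.15. The median was 0.06 without luc replicate 5 and 0.22 without lucOS replicate 1, and it was -0.09 in AL51 (9 of 22 higher) and 0.31 in AL54 (20 of 22). The gene at an unadjusted p under 0.05 was Tap1, the peptide transporter subunit, at 20.3 ± 7.97 TPM in luc and 28.6 ± 6.66 in lucOS (SD, n = 6 each; 0.45, adjusted p = 0.773). B2m, the class I light chain, differed by 0.25 (adjusted p = 0.814) and the heavy chain H2-K1 by 0.11 (adjusted p = 0.879). Psmb9, an immunoproteasome subunit, differed by 0.49 (adjusted p = 0.773). Among type I interferon response genes 15 of 22 were higher (18 after quantile normalization), with a median of 0.14 that was 0.01 without luc replicate 5 and 0.22 without lucOS replicate 1. In AL51 5 of 15 were higher (median -0.05), and in AL54 18 of 21 (0.20).

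T cell and cytotoxic transcripts were near the bottom of the range in all 12 libraries, and most could not be tested. Ifng was listed at 0 in all 6 luc tumours and in lucOS replicates 1 and 2, and had 0.168, 0.147, 0.273 and 0.287 TPM in lucOS replicates 3 to 6. Cd3e, a chain of the T cell receptor complex, had at most 0.176 TPM in luc and 0, 0.0855, 0.775, 0.185, 0.536 and 0.483 TPM in lucOS replicates 1 to 6. Cd8a had at most 0.323 TPM in luc, and 0.0767, 0.510, 1.36, 0.142, 0.527 and 0.581 TPM in lucOS. For Cd3e and Cd8a the 3 highest values of all 12 libraries were those of lucOS replicates 3, 5 and 6, the tumours with the highest Cxcl9. In a bulk sample, fewer cells of a type and less RNA per cell cannot be told apart.

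Of the 16 listed cytotoxic genes 3 passed the filter on low values, Gzma, Nkg7 and Ccl5, each at 1 TPM or more in lucOS replicates 3, 5 and 6 and in 1 luc tumour. Gzma, a granule protease of T and NK cells, was at 0.441 ± 0.377 TPM in luc and 1.38 ± 1.33 in lucOS (SD, n = 6 each; 0.41, adjusted p = 0.794). Ccl5, a chemokine made by activated T cells, was at 0.502 ± 0.395 and 1.95 ± 1.93 TPM (0.61, adjusted p = 0.773). Of 16 listed T cell genes 13 were in the table and 5 were tested, 2 of them higher in lucOS (4 after quantile normalization), with a median of -0.01 that was 0.20 without luc replicate 4. Those 5 did not include the defining genes Cd3d, Cd3e or Cd3g, which were under the filter. The mean log2(TPM + 1) of the 5 tested genes, set against its mean over the 12 libraries, was highest in luc replicate 6 (0.63). It was 0.54 in lucOS replicate 5, 0.52 in luc replicate 4, 0.06 in lucOS replicate 3 and -0.03 in lucOS replicate 6.

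Macrophage genes did not follow the interferon genes across all of these tumours. Of 14 tested, 4 were higher and 10 lower in lucOS, with a median of -0.11 that was -0.31 without luc replicate 5 and 0.03 without luc replicate 6, and the summed level of the list was 386 to 775 TPM in luc and 332 to 908 in lucOS. C1qa, a complement subunit of tissue macrophages, had its highest values in lucOS replicates 3 and 5 (136 and 125 TPM) and luc replicates 4 and 6 (120 and 122), and 61.1 in lucOS replicate 6. Of the lucOS tumours with high interferon genes, replicates 3 and 5 were thus high in C1qa and replicate 6 was not. The part of macrophages in the class II levels was not tested.

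The calprotectin genes of neutrophils and monocytes had lower values in lucOS. S100a8, a calprotectin subunit, had 1.15, 0.810, 3.40, 9.68, 11.2 and 5.22 TPM in luc replicates 1 to 6 and 4.29, 0.626, 0, 0, 1.12 and 3.76 in lucOS replicates 1 to 6. The groups overlapped, and the highest values were those of the AL54 luc tumours (-1.33, SE 0.58, adjusted p = 0.773). S100a9, its partner, differed by -1.36 (SE 0.53, adjusted p = 0.773). Of 7 monocyte and neutrophil genes tested, 2 had an unadjusted p under 0.05, both lower, and the median was -0.36, which was -0.12 without lucOS replicate 1 and -0.66 without luc replicate 4.

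**Figure D2:**
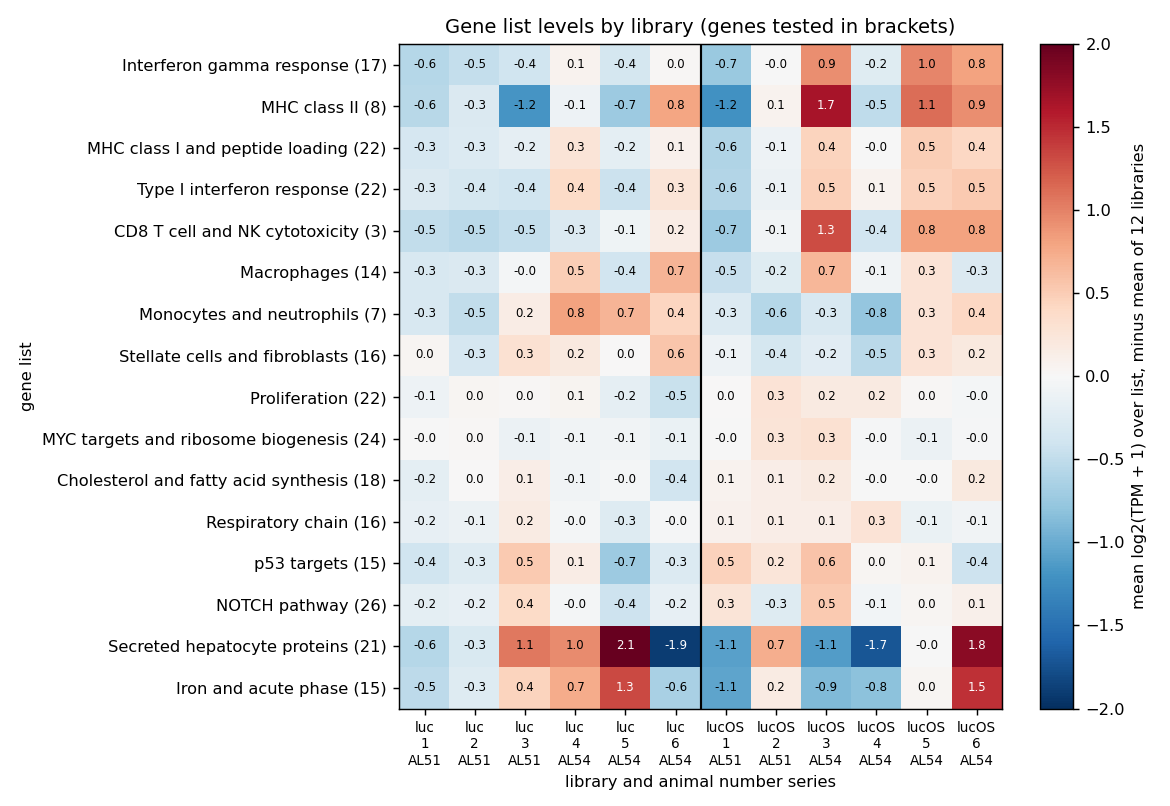
Level of 16 gene lists (rows, genes tested in brackets) in each of the 12 libraries (columns), as the mean log2(TPM + 1) of the list minus its mean over the 12, in red where higher and blue where lower. The interferon gamma level is 0.92, 0.98 and 0.80 in lucOS replicates 3, 5 and 6, and from -0.74 to 0.07 in the other 9, while the secreted hepatocyte level is spread over both groups.

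Proliferation genes differed by small amounts in one direction. Of 22 tested, 22 were higher in lucOS, 10 had an unadjusted p under 0.05, 0 were called, and the median was 0.19. Ube2c, the ubiquitin-conjugating enzyme of mitotic exit, had 162 to 226 TPM in luc (median 201) and 220 to 269 in lucOS (median 229). The ranges overlapped between 220 and 226 TPM, and the difference was 0.29 (SE 0.08, adjusted p = 0.773). Aurka, a mitotic kinase, was at 67.9 ± 11.7 TPM in luc and 83.5 ± 8.70 in lucOS (SD, n = 6 each; 0.34, adjusted p = 0.773). Birc5, the survival and spindle protein survivin, was at 35.8 ± 5.14 and 43.2 ± 1.52 TPM (0.29, adjusted p = 0.773). Mki67, a marker of cycling cells, had 88.7 ± 18.3 and 90.4 ± 9.98 TPM, a difference of 0.08 (adjusted p = 0.914). Its luc values were 51.8 TPM in replicate 6 and 93.2 to 100.3 in the others, which were all above the lucOS mean. The luc group's lowest proliferation level was that of replicate 6, without which the list's median was 0.14.

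The promoters of Ube2c, Cdk1 and Aurka show the elements shared by such genes. In the 120 bases before the RefSeq start (GRCm38.p6), matches to the cell cycle element CHR (TTTGAA) and to CCAAT, on either strand, are in capitals.

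Ube2c, chr2:164769809-164769928, plus strand: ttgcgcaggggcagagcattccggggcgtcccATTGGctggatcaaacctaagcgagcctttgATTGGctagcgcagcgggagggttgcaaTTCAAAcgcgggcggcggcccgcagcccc
Cdk1, chr10:69352913-69353032, minus strand: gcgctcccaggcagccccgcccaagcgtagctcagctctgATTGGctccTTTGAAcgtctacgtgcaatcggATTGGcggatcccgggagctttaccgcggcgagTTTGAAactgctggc
Aurka, chr2:172370571-172370690, minus strand: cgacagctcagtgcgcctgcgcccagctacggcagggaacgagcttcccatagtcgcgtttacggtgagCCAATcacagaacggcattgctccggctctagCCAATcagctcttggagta

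CCAAT was present within 250 bases before a start in 14 of the 18 proliferation genes with a window (77.8%), against 37.5% of all genes, and TTTGAA in 7 of the 18 (38.9%), against 18.3%. Ube2c and Cdk1 had both elements in the stretch shown and Aurka had CCAAT alone, while the same stretch of Birc5 had neither.

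Several biosynthetic groups had the same direction. Of 18 cholesterol and fatty acid synthesis genes, 15 were higher in lucOS, 7 with an unadjusted p under 0.05, and the median was 0.21. Lss, which makes lanosterol, was at 19.8 ± 5.11 TPM in luc and 25.6 ± 4.31 in lucOS (SD, n = 6 each; 0.44, adjusted p = 0.773), and Fdps, which makes farnesyl diphosphate, was at 108 ± 31.1 and 143 ± 22.2 TPM (0.49, adjusted p = 0.773). Fasn, the fatty acid synthase, differed by 0.02 (adjusted p = 0.956) and Acaca, which makes malonyl-CoA, by -0.02 (adjusted p = 0.972). Of 16 respiratory chain genes 16 were higher (15 after quantile normalization), with a median of 0.12 and 2 at an unadjusted p under 0.05. Of 24 MYC target and ribosome biogenesis genes 20 were higher, with a median of 0.15 that was 0.10 without lucOS replicate 3. Of 15 fatty acid oxidation genes 13 were higher, with a median of 0.32, which was 0.06 without lucOS replicate 2. Hadha, a subunit of the mitochondrial trifunctional protein, was at 128 ± 14.1 TPM in luc and 157 ± 17.2 in lucOS (0.29, adjusted p = 0.773). Each of these medians was larger than the all-gene median of 0.01 and smaller than the interferon gamma median.

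**Figure D3:**
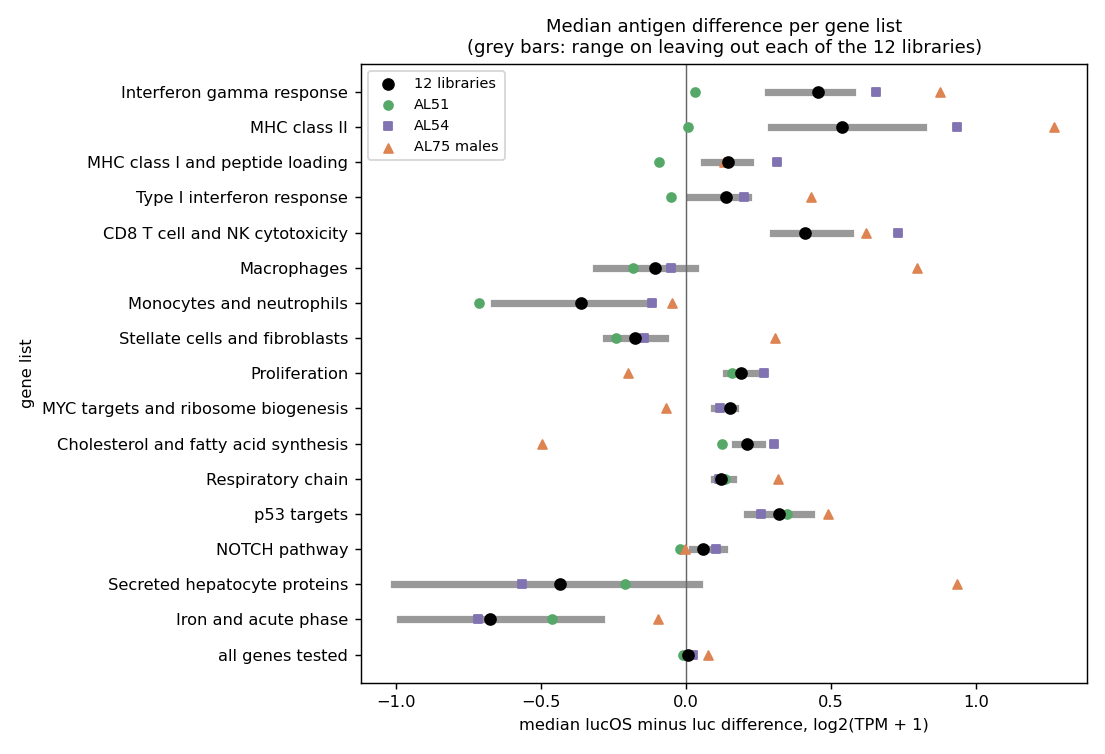
Median lucOS minus luc difference of each list on the log2(TPM + 1) scale, in all 12 libraries (black), AL51 alone (green circles), AL54 alone (purple squares) and the AL75 males (orange triangles), with a grey bar for the range on leaving out each library. The interferon gamma median is 0.46 here and 0.88 in males, and the proliferation median is 0.19 here and -0.20 in males.

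The 12 genes higher in lucOS with the smallest p were taken among genes with a mean of at least 5 TPM in either group, leaving out predicted, small RNA and Y-linked genes. Mthfd2, the mitochondrial folate enzyme, had 49.1 to 64.9 TPM in luc (median 54.3) and 58.1 to 86.2 in lucOS (median 66.8), with a difference of 0.34 (SE 0.09, adjusted p = 0.773). Timm13, an import chaperone of the mitochondrial intermembrane space, differed by 0.29 (adjusted p = 0.773), Gadd45gip1 and Aurkaip1, both of the mitochondrial ribosome, by 0.22 and 0.28, and Ndufab1, the mitochondrial acyl carrier protein, by 0.28. Gemin6, of the SMN complex, differed by 0.35, Haus8, of the augmin complex that seeds spindle microtubules, by 0.44, Lzic by 0.33 and Ddx41, an RNA helicase, by 0.29. Ifi30, the lysosomal thiol reductase that prepares antigens for class II, was at 97.4 ± 8.79 TPM in luc and 128 ± 17.4 in lucOS (SD, n = 6 each; 0.38, adjusted p = 0.773). Clstn3 had the largest difference of these 12 genes (1.00, SE 0.27, adjusted p = 0.773), with 4.80, 5.18, 4.33, 1.36, 1.81 and 4.21 TPM in luc replicates 1 to 6 and 7.88, 4.20, 8.20, 9.50, 8.45 and 7.80 in lucOS. Its groups overlapped through lucOS replicate 2, and it differed by 0.24 in AL51 and 1.54 in AL54. All had an adjusted p of 0.773.

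The smallest p of all was that of a gene lower in lucOS. Anxa11, a calcium-dependent membrane-binding annexin, had 53.5, 48.5, 51.8, 54.2, 53.1 and 51.02 TPM in luc replicates 1 to 6. In lucOS it had 43.8, 39.1, 38.0, 43.2, 39.8 and 38.3 TPM. The groups did not overlap, and the difference was -0.36 (SE 0.06, adjusted p = 0.773), with -0.30 in AL51 and -0.40 in AL54. Among all 14784 genes, 8 did not overlap with lucOS higher (0.0541%) and 8 with lucOS lower (0.0541%).

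Snai1, a zinc finger repressor of epithelial genes, was another of the 8 lower genes. It had 9.93, 8.21, 9.17, 7.74, 12.3 and 10.1 TPM in luc replicates 1 to 6, and 6.74, 4.57, 7.71, 3.41, 6.51 and 5.68 in lucOS. The groups were separated by 7.71 against 7.74 TPM, and the difference was -0.67 (SE 0.18, adjusted p = 0.773). In the males, Snai1 was at 16.4 ± 5.53 TPM in luc and 6.10 ± 1.46 in lucOS (SD, n = 4 each). The male difference was -1.26 (SE 0.24, limma adjusted p = 0.0464). The male tumours share no library with these 12, but the filter and spread of that fit were taken over both sets. The SE and adjusted p in males are therefore not independent of these 12. Of 13 genes of the epithelial to mesenchymal transition list tested here, 8 were higher and 5 lower, with a median of 0.06 that was -0.04 without lucOS replicate 1. The median was -0.23 in AL51 (1 of 12 higher), 0.24 in AL54 (8 of 12) and -0.54 in males (2 of 13). Of all genes tested, 8957 of 14784 were higher in males, with a median of 0.08.

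By the same rule 12 genes lower in lucOS were named. Eln, elastin, had 42.2 to 186 TPM in luc (median 131) and 29.7 to 61.8 in lucOS (median 49.3), a difference of -1.30 (SE 0.33, adjusted p = 0.773). Emilin1, an elastic fibre glycoprotein, differed by -0.71 (adjusted p = 0.773) and Fbln2, fibulin 2, by -0.74 (adjusted p = 0.773). In the males, Eln differed by -2.52 (adjusted p = 0.111), Fbln2 by -1.41 (adjusted p = 0.0707) and Emilin1 by 0.06 (adjusted p = 0.94). S100a4, a calcium-binding protein of mesenchymal and immune cells, was at 107 ± 68.5 TPM in luc and 29.0 ± 22.9 in lucOS (-1.95, SE 0.51, adjusted p = 0.773), and differed by 0.00 in males, with a male interaction of -1.96 (adjusted p = 0.424). Cav1, the coat protein of caveolae, was at 327 ± 40.8 and 227 ± 38.1 TPM (-0.51, adjusted p = 0.773). The other lower genes so named were the cholesterol exporter Abca1 (-0.66), the G protein regulator Rgs2 (-0.67), the kinase Sgk1 (-0.54), the glucocorticoid-induced Tsc22d3 (-0.57) and the organelle transport protein Mlph (-0.64).

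Of 16 stellate cell and fibroblast genes tested, 11 were lower in lucOS, 4 with an unadjusted p under 0.05, and the median was -0.17. It was -0.07 without luc replicate 3, -0.27 without luc replicate 4 and -0.05 without the 3 libraries that stood apart, where 8 of 16 were higher. The 4 genes were Pdgfra, a growth factor receptor of fibroblasts (-0.72, adjusted p = 0.773), the small proteoglycan Lum (-0.84, adjusted p = 0.773), the contractile protein Tagln (-0.87, adjusted p = 0.773) and Fbln2. The fibrillar collagens Col1a1, Col1a2 and Col3a1 differed by -0.01, -0.01 and 0.04. In the males 12 of 16 genes of the list were higher in lucOS, with a median of 0.31.

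**Figure D4:**
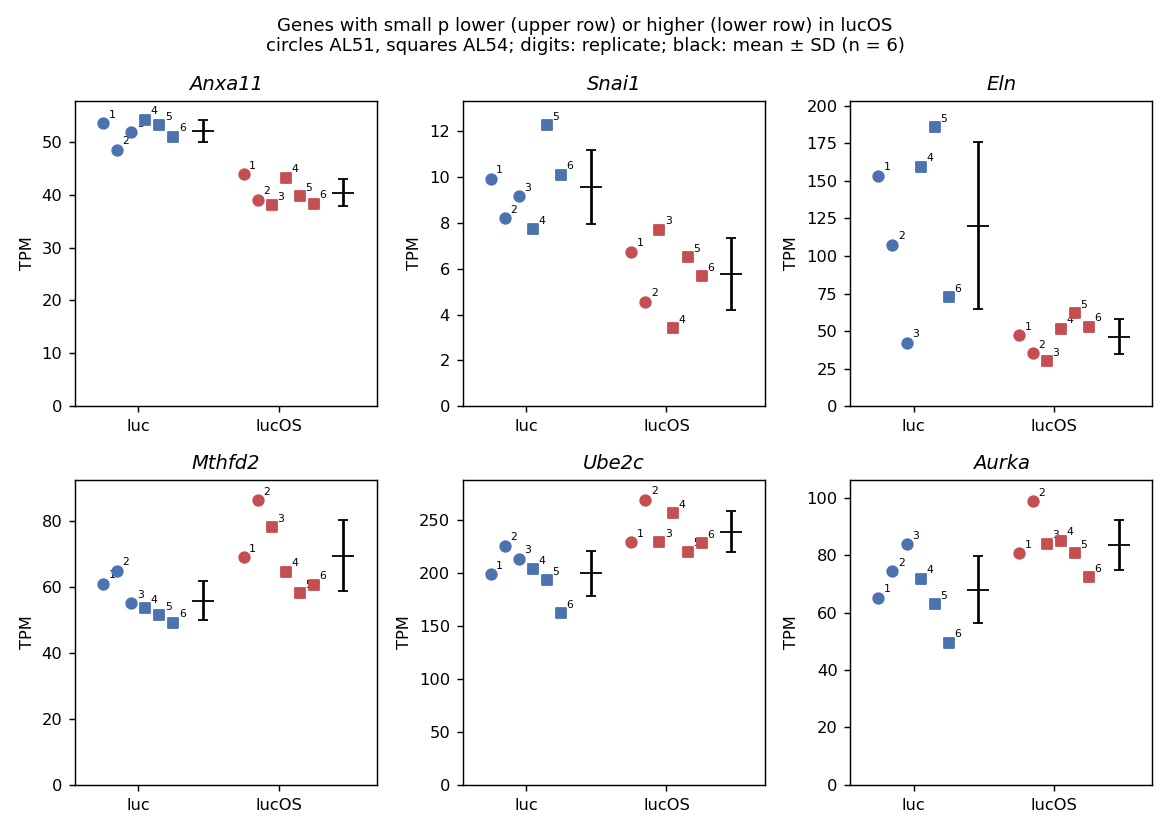
TPM of 3 genes lower in lucOS (upper row) and 3 higher (lower row) in each of the 12 tumours on linear axes, with AL51 as circles, AL54 as squares and the mean ± SD of 6 in black. Anxa11 and Snai1 do not overlap between constructs, while Eln, Mthfd2, Ube2c and Aurka do, and none passed the adjusted test.

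Other genes varied more between tumours of 1 construct than between constructs. Crabp1, a retinoic acid binding protein, had 45.6 TPM in luc replicate 3, 64.0 in lucOS replicate 1 and 159 in lucOS replicate 3, and at most 0.485 in the other 9 tumours. The transcription factors Mafa (27.3, 27.2 and 33.2 TPM) and Pou3f1 (40.6, 42.6 and 52.2 TPM) were high in the same 3 tumours, with at most 1.63 and 0.490 in the others. The NOTCH target Hey1 (116, 123 and 170.5 TPM) and the glycosyltransferase Lfng, which modifies NOTCH receptors (19.3, 22.5 and 46.3 TPM), were highest there too, against at most 44.5 and 5.25 in the others. These 3 tumours carry both constructs and both number series. Nrarp, in contrast, had 1563, 1442 and 1310 TPM in them, within the range of the rest.

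Afp, the fetal liver protein used as a tumour marker, had 74.0 and 65.9 TPM in luc replicates 4 and 5, both AL54, while none of the other 10 tumours exceeded 1.37 TPM. Its difference of -2.21 (SE 0.88, adjusted p = 0.773) rests on those 2 tumours. Secreted hepatocyte proteins were lower in lucOS for 21 of 21 genes, with 0 at an unadjusted p under 0.05 and a median of -0.43. That direction depended on single tumours: the median was -1.01 without luc replicate 6 and 0.04 without luc replicate 5, and 0.13 without the 3 libraries that stood apart. In males 21 of 21 were higher in lucOS, with a median of 0.93.

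**Figure D5:**
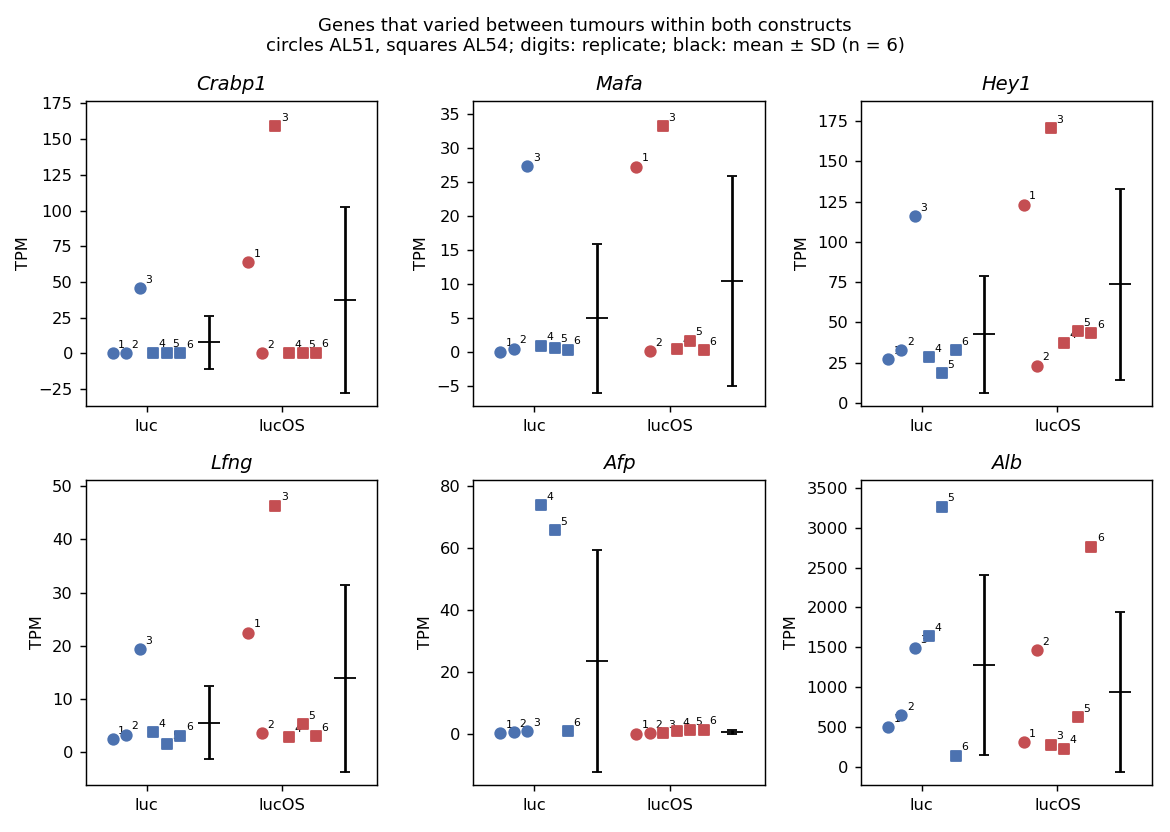
TPM of 6 genes that varied between tumours within both constructs (linear axes), with AL51 as circles, AL54 as squares, replicate numbers beside the points and the mean ± SD of 6 in black. Crabp1, Mafa, Hey1 and Lfng are highest in luc replicate 3 and lucOS replicates 1 and 3, Afp in luc replicates 4 and 5, and Alb in luc replicate 5 and lucOS replicate 6.

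In the AL75 males the construct comparison called 43 of 15453 genes (0.278%), 32 higher and 11 lower in lucOS. It came from a fit of all 20 tumours, with the filter and spread taken over all 20. In that fit, the comparison of the 12 tumours here called 0 of 15453 genes. Of the 43 genes called in males, 41 were tested in the 12 tumours here, and 26 had the same sign. By direction, 22 of 31 higher genes were positive and 4 of 10 lower genes were negative. Only Snai1 among the genes named above was called in males. Across 14784 genes the differences of the males and those here had a Pearson correlation of -0.12, over genes, which are not independent replicates. The test of the construct difference here minus that in males called 0 of 15453 genes (0.00%), with 1867 at an unadjusted p under 0.05 and a smallest adjusted p of 0.173, and the male label cannot be told apart from the AL75 series.

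By group, the interferon gamma differences were positive for 17 of 17 genes here and for the same 17 in males, where the median was 0.88. Cxcl9 and Tgtp1 are among them and passed the filter here through lucOS alone. List members are not independent replicates, and in AL51 alone 7 of 11 were higher (median 0.03), so the counts only describe these libraries. Of all genes tested, 7698 of 14784 were higher here (median 0.01) and 8957 of 14784 in males (median 0.08). MHC class II genes were higher for 7 of 8 here and 8 of 8 in males, with a male median of 1.27, and Cxcl9 was at 0.487 ± 0.633 TPM in luc males and 4.66 ± 3.92 in lucOS males (SD, n = 4 each; 1.72, adjusted p = 0.145). Macrophage genes were higher in lucOS for 13 of 14 in males (median 0.80), against 4 of 14 here, and Kupffer cell genes for 8 of 8 in males (0.82), against 4 of 8 here. Their part in the male class II and interferon values was not tested. The male interaction for Cxcl9 was -0.65 (adjusted p = 0.714). Proliferation genes were higher for 22 of 22 here and for 4 of 22 in males, and cholesterol and fatty acid synthesis genes for 15 of 18 here and 1 of 18 in males, where the medians were -0.20 and -0.49. Among sterol genes the interaction was 1.02 for Lss (adjusted p = 0.346) and 0.92 for Hmgcs1, the cytosolic HMG-CoA synthase (adjusted p = 0.353). These differences between the sets therefore did not pass the adjusted test.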

How the data were processed

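RNA from liver tumours was sequenced from total RNA with a TruSeq preparation, per the labels' protocols. The authors deposited 1 table of TPM values per gene for all 26 bulk libraries, and TopHat2, featureCounts, DESeq2 and mm10 are named, without roles, per the submitters' processing notes. TPM keeps no depth, so the reads behind a value are not known and counting error cannot be stated. The table held 24063 rows. Of these, 27 with date-like names and 2 sharing a name were left out. Names were matched to RefSeq GRCm38.p6 (22617 current symbols, 1227 older ones, 190 unmatched).

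log2(TPM + 1) was fitted in limma 3.58.1 (R 4.3.3, trend and robust spread) with construct and number series as terms, on genes at 1 TPM or more in at least 4 of the 12 libraries, with Benjamini-Hochberg adjustment over all genes tested. The construct difference in males and the male interaction came from fits of all 20 NICD tumours, with the filter and spread taken over all 20. In these fits AL51 and AL54 shared 1 construct difference. The code was tested on simulated data. Named genes were the 12 higher and the 12 lower with the smallest p and a mean of at least 5 TPM in either group (leaving out predicted, small RNA and Y-linked genes), up to 3 members per gene list by smallest p, and a set of fixed driver, liver and immune genes. Igtp, Tagln, Hey1, Lfng, Krt19, C1qa, Rrm2 and other list members were added after their values were seen. Members and the 46 gene lists (735 of 744 entries in the table) were chosen with earlier results of these data known, so lists have counts and medians and no test. Motifs were searched in RefSeq promoter windows. p-values set a difference against the spread between tumours in the fit, which limma moderates across genes.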

Additional observations from a re-analysis of the deposited data

Results flagged for a closer look

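Within a group of 6, a value was singled out where the gap to its neighbour, divided by the group's range on the log2 scale, passed Dixon's critical value for 6 samples. Of 127 pairs of gene and group examined, 8 did so. Some of the genes examined were chosen for a large spread in these same libraries, so the count cannot be set against a chance rate. In luc, replicate 3 stood above the other 5 tumours for Crabp1 (45.6 TPM, against at most 0.485), Mafa (27.3 TPM, against at most 0.937), Nkx1-1 (25.0 TPM, against at most 0.425) and Pou3f1 (40.6 TPM, against at most 0.420). These are 4 genes of 1 tumour and are not independent. luc replicate 6 was low for Mki67 at 51.8 TPM, against 93.2 to 100.3 in the others, and it was the only luc tumour with a value above 0 for Pdcd1, an inhibitory receptor of T cells, at 0.0624 TPM. In lucOS, replicate 2 was low for Clstn3 at 4.20 TPM, against 7.80 to 9.50, and replicate 5 was low for Haus8 at 15.7 TPM, against 19.8 to 22.3.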

How the results depend on the processing

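The count of 0 genes called for lucOS against luc held in 25 of 26 alternatives, which varied the pseudocount, scaling, filter, spread model, series term, weights, series and libraries used. Without 1 library at a time the count ranged from 0 to 1 for lucOS against luc, from 0 to 1 for the construct by number series interaction and from 0 to 1 for the construct by male label interaction. The single genes were Mir219c without luc replicate 1 (adjusted p = 0.00472), Afp without luc replicate 6 (adjusted p = 0.0108) and Mir210 without lucOS male replicate 4 (adjusted p = 0.0424). The count of genes at an unadjusted p under 0.05, 910 with all libraries, ranged from 170 in AL51 alone to 1541 without luc replicate 3, and was 1442 with array weights. Of 186 named genes tested, 41 changed sign in at least 1 of 26 alternatives, and 0 were called in any. A gene was skipped where it failed the filter of an alternative, as Afp was without luc replicate 4, without luc replicate 5 and in AL51 alone. Its sign was thus not examined without the tumours its difference rests on. None of the 24 genes with the smallest p changed sign. They were chosen for a small p in these same libraries, so their steady sign is no support for them. Leaving out the 3 libraries that stood apart was chosen after seeing the data. No paired analysis was possible because the labels give no replicate numbers shared by the constructs. Unknown depth and 6 tumours per construct limit the precision.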

Other observations

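Other gene groups are given here as values, with 0 genes called in each. p53 targets were higher in lucOS for 13 of 15 genes (12 after quantile normalization), with a median of 0.32 here, 0.21 without luc replicate 5, and 0.49 in the males. Pmaip1, which encodes the death-promoting protein NOXA, had 4.32, 5.10, 29.8, 19.1, 2.20 and 5.22 TPM in luc replicates 1 to 6 and 32.3, 11.6, 93.5, 12.3, 14.3 and 8.19 in lucOS (1.29, SE 0.68, adjusted p = 0.773). Gdf15, a stress-induced hormone, was at 23.3 ± 22.6 TPM in luc and 40.05 ± 24.4 in lucOS (SD, n = 6 each; 0.99, adjusted p = 0.773). Both were highest in lucOS replicate 3, and luc replicate 3 was the highest luc tumour for both, which are 2 of the 3 libraries that stood apart.

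Iron and acute phase genes were lower in lucOS for 11 of 15 genes, with a median of -0.67 that was -0.29 without luc replicate 5 and -0.13 without the 3 libraries that stood apart. Red blood cell genes were lower for 6 of 7, with a median of -0.40 that was -0.09 without luc replicate 4, -0.85 without luc replicate 6, 0.25 in AL51 (5 of 6 higher) and -0.86 in AL54. Biliary and progenitor genes were higher for 13 of 17, with a median of 0.16 that was 0.02 without luc replicate 6, 0.32 without lucOS replicate 1, -0.33 in AL51 (0 of 15 higher) and 0.58 in AL54 (14 of 15). Dendritic cell genes were higher for 4 of 6 tested, with a median of 0.25 that was 0.07 without lucOS replicate 3. Endothelial genes were higher for 4 of 16, with a median of -0.09 that was 0.02 without luc replicate 4. Chemokine and homing genes were higher for 4 of 10 (median -0.12, and -0.04 without luc replicate 3). TGF-beta pathway genes were higher for 8 of 19, with a median of -0.035 that was 0.036 without luc replicate 4. Of 12 fetal liver and oncofetal genes tested 9 were higher, with a median of 0.25 that was 0.09 without luc replicate 6 and 0.42 without lucOS replicate 5, while Igf2, an imprinted fetal growth factor, was at 2445 ± 824 TPM in luc and 2689 ± 423 in lucOS (0.17, adjusted p = 0.869).

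Sox9, a biliary and progenitor factor, differed by -0.71 in AL51 and 1.04 in AL54, with an interaction of 1.75 (adjusted p = 1).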
